A study of Mus musculus with 2 samples.

Results

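Crisp3, which encodes cysteine-rich secretory protein 3, was followed in B cells sorted from the mouse colon. It is 1 of 31053 genes in the count matrices, and it was selected on its lower level in 1 of the study's 2 libraries, so that difference is given as a description. The B cells came from the lamina propria, the connective tissue under the epithelium, and the mice were female C57BL/6J, a common inbred strain. The day 14 library was made from mice that drank 2% dextran sulfate sodium (DSS) for 7 days and left to recover for 7 days. The day 0 library was made from untreated mice. DSS damages the colonic epithelium and causes colitis. Lymphocytes were isolated, B cells were sorted by flow cytometry, and transcripts were counted cell by cell with the 10x Chromium 3′ kit, version 2. A treatment tag reads DSS for both libraries, and the untreated state of day 0 follows the protocols and the series design. Each group is 1 library, and neither the number of mice pooled for it nor their age is stated in the labels. No difference between the days therefore has a replicate check. The 95% intervals in parentheses cover counting error only.

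CRISP proteins are secreted proteins rich in cysteine. They belong to the CAP superfamily, named for cysteine-rich secretory proteins, antigen 5 and pathogenesis-related 1 proteins. Crisp3 is best known from the salivary gland, and human CRISP3 is stored in granules of neutrophils. In mouse B cells it is known as a gene that depends on Oct2, the octamer-binding transcription factor encoded by Pou2f2, which works with the B cell coactivator OBF-1, encoded by Pou2af1. The octamer is the short DNA element through which Oct2 also acts at immunoglobulin promoters.

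The Crisp3 gene (ENSMUSG00000025433) lies at chr17:40221777-40242288 on the minus strand of mm10 in GENCODE M21. It has 1 annotated transcript of 1417 bases with 8 exons, and 723 bases are coding. A 3′ kit reads mainly the last exon, which spans 743 bases, and 0 annotated genes overlap Crisp3. The 250 bases upstream of its start are shown because B cell expression of Crisp3 is known to run through an octamer factor. They are the reference sequence of RefSeq on GRCm38.p6, at chr17:40242289-40242538, written on the gene's minus strand. Capitals mark the first 7 letters of the octamer on the opposite strand (TTTGCAT) and a TATA box (TATAAA).
Crisp3 upstream: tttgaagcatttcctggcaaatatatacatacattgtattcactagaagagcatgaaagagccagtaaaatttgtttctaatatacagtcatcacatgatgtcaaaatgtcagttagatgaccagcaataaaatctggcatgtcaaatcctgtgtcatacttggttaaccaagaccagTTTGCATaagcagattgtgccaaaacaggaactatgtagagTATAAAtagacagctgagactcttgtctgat
The full octamer ATGCAAAT, searched on both strands, had 0 matches in this window, and 526 of 32851 mouse promoter windows of the same length (1.60%) held it. Its first 7 letters, ATGCAAA, had 1 match on the opposite strand, 72 to 66 bases before the start. Of the promoter windows, 1355 (4.12%) held these 7 letters on either strand, and every octamer match is also counted among them. TATAAA stood on the gene's strand 31 to 26 bases before the start, and 2494 windows (7.59%) held it. The windows of Crisp1, Crisp2 and Crisp4, the other CRISP genes, held no match to the 7 letters. A match of letters is no measurement of binding.

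Crisp3 was sparse in colonic B cells and lower at day 14. There were 4692 cells at day 14 and 3290 at day 0, with 12317052 and 8690102 unique molecular identifiers (UMIs, the tags by which captured transcripts are counted). The median cell had 2241.5 UMIs at day 14 and 2278.5 at day 0. Markers of mature B cells (at least 5 UMIs) were found in 4689 of the day 14 cells and 3289 of the day 0 cells, and in all 160 and 299 cells that held Crisp3. These markers include Cd74, with 308882 UMIs at day 14 and 226258 at day 0. The rule is therefore easily passed and cannot by itself show that a cell is a B cell. The libraries shared 17 cell barcodes, and these cells held 1 Crisp3 UMI at day 14 and 0 at day 0.

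Crisp3 had 202 UMIs at day 14 and 433 UMIs at day 0. As a level, this was 17.4 CPM (15.10 to 19.99) at day 14 and 53.5 CPM (48.6 to 58.8) at day 0, where CPM is UMIs per 1000000 UMIs of genes other than immunoglobulin and mitochondrial genes. The level at day 14 was 3.07-fold lower (2.59 to 3.65). A Crisp3 UMI was found in 160 cells (3.41%, 2.91 to 3.97) at day 14 and in 299 cells (9.09%, 8.13 to 10.1) at day 0. With each cell thinned to 1000 UMIs, Crisp3 was found in 72 of 4629 cells (1.56%) at day 14 and 142 of 3256 (4.36%) at day 0. Thinning left out 63 shallower cells at day 14 and 34 at day 0.

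Across all genes with at least 50 UMIs, 441 of 8924 (4.94%) were at least 1.5-fold lower and 117 (1.31%) at least 1.5-fold higher at day 14. The middle of all log2 ratios was -0.09. TMM factors and median-of-ratios size factors moved this median by 0.10 and 0.11 on the log2 scale. With TMM factors 266 genes were lower and 186 higher, and with size factors 255 were lower and 201 higher. Ordered from the lowest ratio, Crisp3 stood at place 13 of the 8924 genes, with a log2 ratio of -1.62. Among the 3822 genes with at least 500 UMIs it was at place 3, behind Tmem176b and Ly6c2, 2 genes that led the plasma-like cells described below. The plot of all genes shows Crisp3 below the cloud of genes of similar level.

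**Figure D1:**
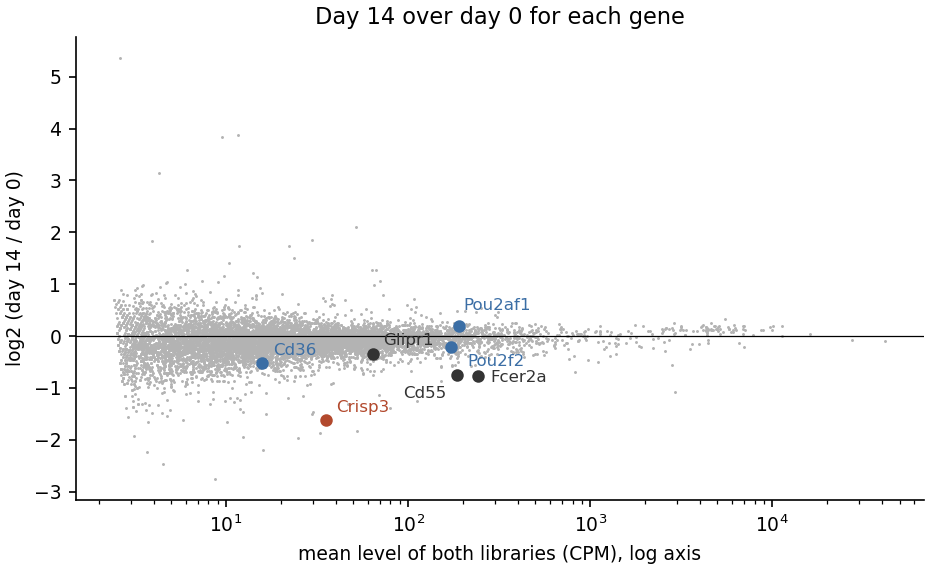
Each grey point is a gene with at least 50 UMIs over both libraries and at least 1 in each, by its mean level (CPM, log axis) and the log2 ratio of day 14 over day 0. Crisp3, at 17.4 CPM at day 14 and 53.5 CPM at day 0, lies far below 0, while Pou2f2 and Pou2af1, which encode Oct2 and its coactivator, lie near 0.

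The transcripts were unevenly spread, with more UMIs in few cells than in other genes of similar total. At day 14, 28 cells held 2 or more Crisp3 UMIs and together carried 70 of the 202 UMIs (34.7%). At day 0, 78 cells did so and carried 212 of the 433 UMIs (49.0%). The highest cell had 7 UMIs at day 14 and 9 at day 0. The variance over mean across cells was 1.62 at day 14 and 2.06 at day 0, where a Poisson spread over equal cells would give 1. Genes with totals within 1.5-fold of Crisp3 numbered 2141 at day 14 and 1625 at day 0. Their median variance over mean was 1.04 at day 14 and 1.08 at day 0, and 98.1% and 97.9% of them lay below Crisp3. Cells with Crisp3 were about as deep as the others, with a median of 2168 UMIs against 2243.5 in cells without it at day 14, and 2328 against 2274 at day 0.

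**Figure D2:**
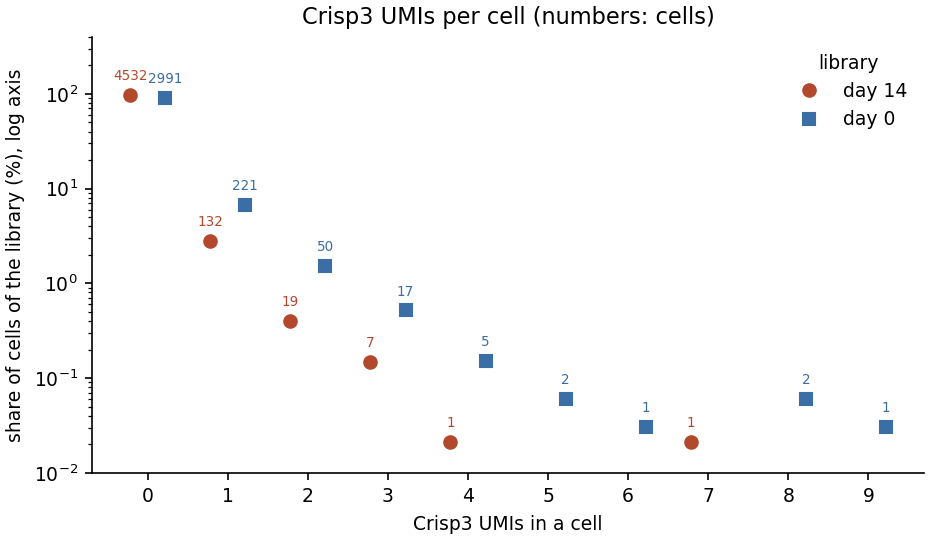
Share of the cells of each library (percent, log axis) by their number of Crisp3 UMIs, with the number of cells printed above each point and values of 0 left out. At every number from 1 UMI to 4 UMIs the day 14 share lies below that of day 0, and cells with 5 or more UMIs numbered 1 at day 14 and 6 at day 0.

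Both the share of cells with Crisp3 and the number of UMIs in such a cell were lower at day 14. A cell with Crisp3 held 1.26 UMIs on average at day 14 and 1.45 at day 0. If each Crisp3 UMI of the day 0 cells were kept with a chance of 32.7%, the ratio of the means per cell, 3.68% of cells would be expected to hold at least 1 UMI and 0.478% at least 2, with 1.17 UMIs in a cell that holds any. If instead the cells with Crisp3 became fewer and kept their 1.45 UMIs, 2.97% of cells would hold Crisp3. The observed day 14 values of 3.41%, 0.597% and 1.26 lie between the 2 calculations. The interval of the share, 2.91% to 3.97%, holds both.

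The isotype state of a cell was read from the heavy chain constant genes, which Crisp3 has no part in. A B cell first makes IgM and IgD from 1 transcript and gives up both when it switches to IgG, IgE or IgA. Class-switched cells had at least 3 UMIs of switched constant genes, and these made up over 50% of their heavy chain constant UMIs. The IgD state had at least 2 Ighd UMIs, and IgM without IgD at least 3 Ighm UMIs and no Ighd. The remaining 2327 cells at day 14 and 1576 at day 0 had too few such UMIs and are called unassigned.

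Class-switched cells, taken as a whole, had a lower Crisp3 level than cells of the IgD state. At day 14 the 97 class-switched cells held 1 Crisp3 UMI (1.94 CPM, 0.0490 to 10.8). At day 0 the 127 class-switched cells held 6 UMIs (10.3 CPM, 3.79 to 22.5), in 3 cells. At the level of the IgD state, 10.7 UMIs would be expected in the switched cells at day 14 and 35.5 at day 0.

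The level in class-switched cells over that in the IgD state was 0.0937 (0.00234 to 0.537) at day 14 and 0.169 (0.0612 to 0.377) at day 0. Both intervals lie below 1. Switched cells were deeper, not shallower, with a median of 4364 UMIs against 2398.5 in the IgD state at day 14, and 3455 against 2416.5 at day 0. Among the switched cells, those led by Igha, the IgA constant gene, held 1 Crisp3 UMI in 67 cells at day 14 and 2 in 94 cells at day 0. Those led by IgG genes held 0 in 30 cells at day 14, with an upper bound of 25.8 CPM, and 4 in 33 cells at day 0 (30.8 CPM, 8.38 to 78.7). The range for IgG-led cells holds the level of the IgD state on both days, so the lower level is not shown for them alone. Igha itself was detected in 13.9% of all cells at day 14 and 37.3% at day 0, so the rule asked for 3 switched UMIs and a majority, and how far free Igha RNA entered the states was not tested.

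Between IgM without IgD and the IgD state no difference was shown by the rules as set, and at day 0 a stricter rule gave one. The IgD state had 20.7 CPM (16.4 to 25.7) at day 14 and 61.0 CPM (51.7 to 71.4) at day 0. IgM without IgD had 17.5 CPM (12.2 to 24.4) at day 14 and 50.3 CPM (39.8 to 62.8) at day 0. IgM without IgD over the IgD state was 0.848 (0.554 to 1.27) at day 14 and 0.825 (0.620 to 1.09) at day 0, intervals that include 1. With at least 10 Ighm UMIs asked for, it was 0.837 (0.265 to 2.03) at day 14 and 0.278 (0.0890 to 0.663) at day 0. Behind the second value were 5 Crisp3 UMIs in 68 IgM cells. With at least 5 Ighd UMIs asked for it was 1.99 (0.627 to 10.1) at day 14 and 0.698 (0.430 to 1.18) at day 0. At day 14 unswitched cells with 0, 1, 2 and 3 or more Ighd UMIs had 15.1, 18.7, 23.2 and 18.0 CPM of Crisp3. At day 0 they had 48.2, 63.1, 57.9 and 64.2 CPM. Cells with no Ighd UMI were lowest on both days, but the intervals of all 4 grades overlapped. Light chain made no detectable difference either, with lambda over kappa cells at 0.687 (0.272 to 1.44) at day 14 and 0.760 (0.481 to 1.15) at day 0.

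**Figure D3:**
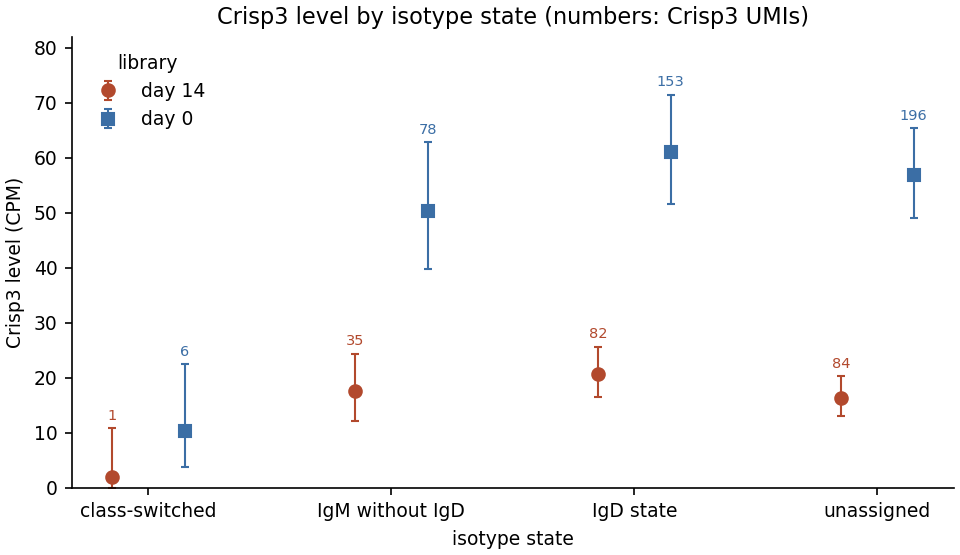
Crisp3 level (CPM) by isotype state in the day 14 and day 0 libraries, with exact Poisson 95% intervals and the number of Crisp3 UMIs above each point. Class-switched cells lie lowest on both days, and in the other 3 states day 14 lies at 16.4 to 20.7 CPM and day 0 at 50.3 to 61.0 CPM.

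The lower level at day 14 was found in the IgD state, in IgM without IgD and in the unassigned cells, whose isotype is not known. Day 14 over day 0 was 0.339 (0.256 to 0.446) in the IgD state, 0.348 (0.227 to 0.525) in IgM without IgD and 0.289 (0.221 to 0.375) in unassigned cells. In class-switched cells the ratio was 0.188 (0.00408 to 1.55), from 1 and 6 UMIs, and this cannot show a difference at this depth. It was likewise found at each depth of cell, at 0.335, 0.413 and 0.251 in cells of low, middle and high UMI number, the 3 classes being of equal size over both libraries.

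Seen from the cells with Crisp3, 1 of 160 (0.625%) was class-switched at day 14, against 96 of 4532 cells without it (2.12%). At day 0, 3 of 299 (1.003%) were class-switched, against 124 of 2991 (4.15%). The IgD state made up 39.4% of cells with Crisp3 and 31.4% of cells without it at day 14, and 35.8% and 29.1% at day 0. Unassigned cells were 44.4% of cells with Crisp3 and 49.8% of cells without it at day 14, and 45.5% and 48.1% at day 0. The 7 cells with 5 or more Crisp3 UMIs, 1 at day 14 and 6 at day 0, held 1815 to 3070 UMIs in all, and 0 of them were class-switched.

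Clusters of cells, built without Crisp3 and without immunoglobulin genes, placed the low levels in plasma-like cells and in a cluster with memory-associated genes. Of 11 clusters, 1 was named plasma-like by Jchain, Tnfrsf17 and other plasma cell genes. The others had too few marker genes for a name and are called by number and leading genes. Plasma-like cells held 1 Crisp3 UMI in 30 cells at day 14 and 0 in 25 cells at day 0, at median depths of 15994.5 and 18958 UMIs. Their level over all other cells was 0.205 (0.00517 to 1.16) at day 14. At day 0 the 0 UMIs stood against 10.7 expected, at least 3.55-fold lower with the floor of 3 counts set in their place.

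Cluster 8 was low on both days. It was led by S100a8, S100a9, Cd80, S100a6 and Nt5e, of which Cd80, a costimulatory ligand, and Nt5e, the ectoenzyme CD73, mark memory B cells. It held 2 Crisp3 UMIs in 160 cells at day 14 (3.25 CPM) and 14 in 212 cells at day 0 (19.2 CPM). Against all other cells this was 0.178 (0.0215 to 0.653) at day 14 and 0.336 (0.182 to 0.571) at day 0.

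Class-switched cells made up 29.4% of cluster 8 at day 14 and 33.0% at day 0. With switched cells set aside on both sides, the ratio was 0.241 (0.0290 to 0.881) at day 14 and 0.408 (0.209 to 0.720) at day 0. Neutrophil genes are listed here because human CRISP3 is a neutrophil protein. Their 7 markers summed to 399 UMIs at day 14, up to 206 of them in a single cell, and to 0 at day 0, and Ltf, Camp and Ngp were at 0 on both days. Cells with Crisp3 held 0 of these UMIs.

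Among the 4 clusters with over 300 cells on each day, clusters 1 and 4 had the highest levels on both days. Cluster 1, led by Emp3, Txk and Muc1, had 29.4 CPM (966 cells) at day 14 and 67.7 CPM (956 cells) at day 0. Its level over all other cells was 1.96 (1.42 to 2.68) at day 14 and 1.38 (1.12 to 1.70) at day 0. Cluster 4, led by Notch2, a receptor needed by marginal zone B cells, had 24.5 CPM at day 14 and 68.6 CPM at day 0. Its ratio to all other cells was 1.47 (0.923 to 2.24) at day 14 and 1.32 (0.968 to 1.77) at day 0, and the intervals include 1. Small clusters reached higher levels on a single day. Cluster 9, led by heat shock genes, had 26.0 CPM in 67 cells at day 14 and 169 CPM in 22 cells at day 0. Its ratio to all other cells was 1.501 (0.405 to 3.91) at day 14 and 3.20 (1.37 to 6.37) at day 0. Its 8 UMIs at day 0 lay in 3 cells, 5 of them in 1 cell. That was 13.6% of its cells (2.91 to 34.9), an interval that holds the 9.09% of all cells. Cluster 11, described below, had 48.0 CPM at day 14 and 23.3 CPM at day 0, and its ratio was 2.82 (1.12 to 5.92) at day 14 and 0.428 (0.138 to 1.01) at day 0.

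Clusters 2, 3 and 5 lay in the middle, and their intervals overlapped on each day. Cluster 2, led by Tifa and Slfn2, had 14.5 CPM at day 14 and 56.2 CPM at day 0. Cluster 3, with Pmaip1 and Gpr183 among its leading genes, had 16.7 and 56.8 CPM. Cluster 5, led by the activation genes Egr1 and Ccl4, had 12.9 and 49.2 CPM. Cluster 7, led by Rangrf and Shmt1 and holding the growth genes Srm and Mif, was lower, with 5.95 CPM at day 14 and 35.1 CPM at day 0. Its ratio to all other cells was 0.322 (0.117 to 0.712) at day 14. At day 0 it was 0.642 (0.370 to 1.04), an interval that includes 1. Clusters 7 and 8 had median depths of 3208.5 and 3291.5 UMIs, against 2021.5 and 2089 in clusters 1 and 4. How far depth goes with the levels of the clusters was not tested.

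Day 14 was lower than day 0 in 8 of the 11 clusters with an interval below 1, at ratios from 0.153 in cluster 9 to 0.435 (0.313 to 0.597) in cluster 1. In cluster 9 the shares of cells with Crisp3, 5.97% (1.65 to 14.6) at day 14 and 13.6% (2.91 to 34.9) at day 0, had overlapping intervals. The exceptions among the 11 clusters had few cells on a day. Cluster 6, led by the interferon-gamma-associated genes Serpina3f and Tgtp2, held 21 Crisp3 UMIs in 466 cells at day 14 and 1 in 17 cells at day 0. Within day 14 its level over all other cells was 1.04 (0.630 to 1.64), so Crisp3 was not detectably different in the cells with the interferon genes. Cluster 11, with Rgs13, S1pr2 and cell cycle genes among its leading genes, held 7 UMIs in 17 cells at day 14 and 5 in 33 cells at day 0. Its ratio was 2.06 (0.563 to 8.24), and the direction cannot be read from so few UMIs.

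**Figure D4:**
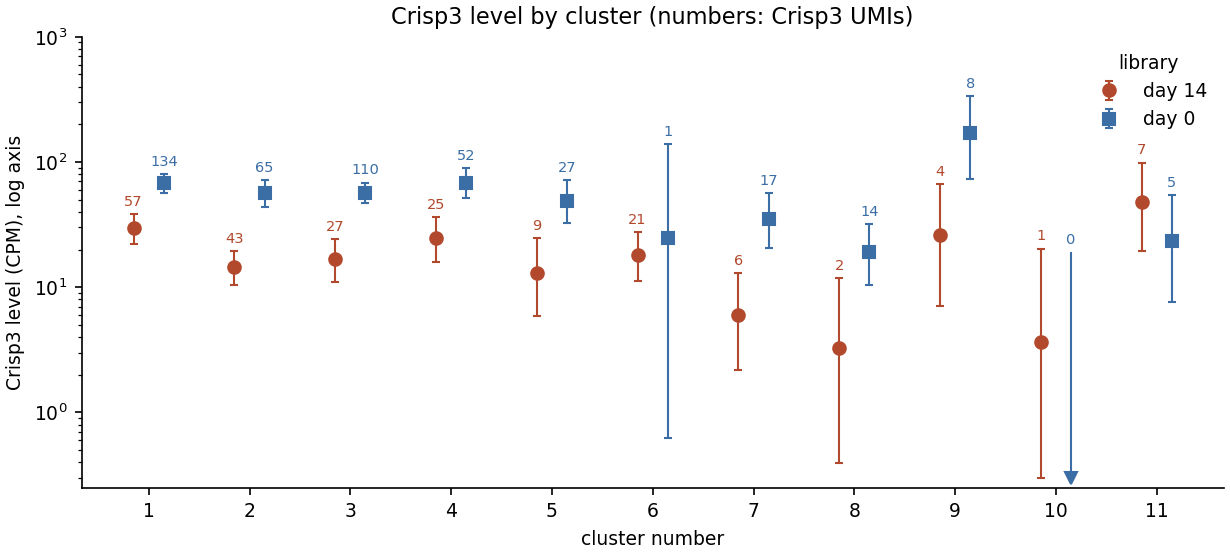
Crisp3 level (CPM, log axis) in each of the 11 clusters, in the day 14 and day 0 libraries, with exact Poisson 95% intervals and the number of Crisp3 UMIs. The triangle marks 0 UMIs, and bars that reach the bottom of the axis go on below it. Day 14 lies below day 0 in clusters 1 to 9, and cluster 8 lies low on both days with 2 and 14 UMIs.

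Few barcodes could show how much Crisp3 free RNA adds to cells. Barcodes left out of the cell sets and holding at least 3 T cell marker UMIs numbered 48 at day 14 and 59 at day 0, with median depths of 2991 and 3292 UMIs. They held 1 Crisp3 UMI at day 14 and 0 at day 0. With the floor of 3 counts set in place of 0, the share at day 0 would be 5.08% of such barcodes. The barcode with the UMI also held 85 UMIs of mature B cell markers beside its 13 T cell marker UMIs. The shares of B cells with Crisp3, 3.41% at day 14 and 9.09% at day 0, cannot be set against a background from so few barcodes. How much free RNA adds was not tested.

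Octamer factors and genes known to depend on them were measured in the same cells. Pou2f2 had 159 CPM at day 14, against 184 CPM at day 0, a ratio of 0.864 (0.806 to 0.925). Pou2af1 had 204 CPM and 179 CPM, a ratio of 1.14 (1.07 to 1.22). Of the 6 measured genes in the list of octamer factors and genes known to depend on them, 0 were higher and 1 was at least 1.5-fold lower at day 14, beside 4.94% of all genes. That gene was Kcnn4, a potassium channel, with 8.02 CPM at day 14 and 17.4 CPM at day 0 (0.460, 0.350 to 0.602). Cd36, a scavenger receptor that also depends on Oct2 in mouse B cells, had 151 UMIs in each library and a ratio of 0.698 (0.553 to 0.880). The median log2 ratio of the list was -0.16, against -0.09 for all genes.

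Within a library, cells with Crisp3 did not stand out by these factors. Pou2f2 in cells with Crisp3 over cells without was 0.815 (0.608 to 1.07) at day 14 and 0.987 (0.823 to 1.18) at day 0. Pou2af1 was 1.24 (1.01 to 1.52) at day 14 and 1.13 (0.953 to 1.34) at day 0. All 6 measured members lay within 1.5-fold on both days. For scale, 15.6% of 7981 genes were at least 1.5-fold lower and 11.1% at least 1.5-fold higher in cells with Crisp3 at day 14. At day 0, 10.3% of 7471 genes were lower and 4.07% higher.

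Of the other 13 CAP superfamily genes, 3 had any UMI in the cell sets and 10 were at 0. Glipr1 had 657 UMIs (56.7 CPM) at day 14 and 579 (71.6 CPM) at day 0, and its ratio was 0.792 (0.707 to 0.887). Glipr2 had 295 and 180 UMIs and a ratio of 1.14 (0.947 to 1.38). Crisp1 had 28 UMIs at day 14, against 15 at day 0, and its ratio was 1.30 (0.672 to 2.62). Crisp3 is therefore the only one of these 4 genes with a ratio of at least 1.5-fold either way.

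Crisp1 is the closest relative, 51470 bases from Crisp3 on the same strand. Its transcript was identical to that of Crisp3 at 1272 of 1397 aligned bases (91.1%), and at 367 of 393 (93.4%) within the last 400 bases of Crisp3. None of the 1328 stretches of 90 bases in the Crisp3 transcript occurs unchanged in Crisp1. At day 0, 6 of the 13 cells with a Crisp1 UMI also held Crisp3 (46.2%, 19.2 to 74.9), against 9.09% of all cells. At day 14 it was 2 of 26 (7.69%, 0.946 to 25.1), against 3.41%. The counts of the 2 genes are uncertain to the extent that reads can be split between them, and this was not tested. The 15 to 28 Crisp1 UMIs are few beside those of Crisp3. Pgk2, the nearest gene at 13137 bases, had 0 UMIs at day 14 and 1 at day 0, and the pheromone genes Esp38, Esp8 and Esp6 had 0.

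Genes whose pattern over single cells is most like that of Crisp3 were chosen at day 0 and read again at day 14. The measure was the level in cells with Crisp3 over that in cells without it, ranked by the bound of its interval nearest to 1, over 3290 cells at day 0 and 4692 at day 14. The 10 genes highest at day 0 had ratios of 1.83 to 4.51 there, and these values chose them. Of the 10, 1 was again at least 1.5-fold higher at day 14, where 11.1% of all genes were. That was Dlg1, a scaffold protein of cell contacts and lymphocyte synapses.

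Dlg1 had 7 UMIs in the 160 cells with Crisp3 and 127 in the 4532 cells without at day 14, a ratio of 1.52 (0.598 to 3.22). At day 0 it had 18 and 60 UMIs, a ratio of 2.88 (1.60 to 4.94). The day 14 interval includes 1. Ipo11, a nuclear import receptor, had 1.31 (0.263 to 4.01) at day 14, and the other 8 genes had ratios below 1 at day 14, from 0.229 for Alyref2 to 0.896 for Rabl3. The chemokine gene Ccl4 and the kinetochore gene Spc24 owed their day 0 values to single cells, which held 24 of 40 and 13 of 15 of the UMIs.

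**Figure D5:**
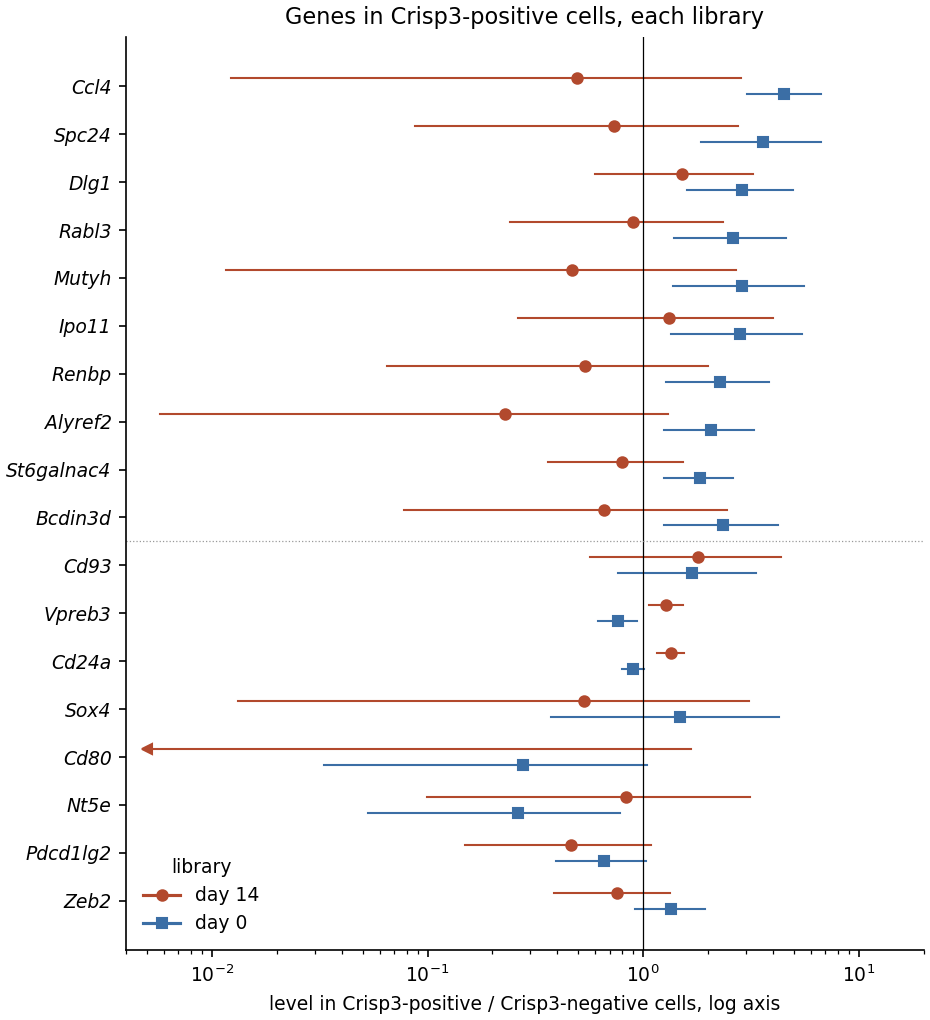
Level in cells with Crisp3 over cells without it (log axis) in the day 14 and day 0 libraries, with exact 95% counting intervals, for the 10 genes chosen at day 0 (above the dotted line) and, below it, for the measured members of the immature or transitional list (Cd93 to Sox4) and of the memory-associated list (Cd80 to Zeb2). The triangle marks 0 UMIs in cells with Crisp3. Of the 10 genes, Dlg1 alone reached 1.5 on both days, and Cd80, Nt5e and Pdcd1lg2 lay below 1 on both, while Zeb2, Vpreb3, Cd24a and Sox4 lay on different sides of 1 on the 2 days.

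The 10 genes lowest at day 0 had ratios up to 0.0930 there, and these values chose them. They included plasma cell genes, namely Jchain, which links IgA and IgM into polymers, the chemokine receptor gene Ccr10, Tnfrsf17 (the receptor BCMA) and the protease inhibitor gene Slpi. Slpi had 0 UMIs in cells with Crisp3 on both days, against 1092 in cells without it at day 14 and 315 at day 0. By UMIs this was at least 13.2-fold and 11.0-fold lower. Only 0.750% of cells without Crisp3 held Slpi at day 14 and 0.736% at day 0, with up to 476 and 97 UMIs in 1 cell. With so few such cells, the absence of Slpi from cells with Crisp3 cannot show a difference in the share of cells. Jchain was at 0.419 (0.375 to 0.468) at day 14 and 0.0220 (0.0172 to 0.0276) at day 0. At day 14, 248 of its 326 UMIs in cells with Crisp3 lay in 1 cell. Others of the 10 were not low at day 14. The metallothionein gene Mt1 was at 1.29 (0.694 to 2.19) at day 14 and 0.0708 (0.0145 to 0.208) at day 0. Tmem176a, a membrane protein gene, was at 1.22 (0.388 to 2.93) at day 14 and 0.0300 (0.000758 to 0.169) at day 0. Bet1, a gene of vesicle transport, was at 1.01 (0.515 to 1.78) at day 14 and 0.0930 (0.0112 to 0.340) at day 0, and at day 0 it stayed at 0.110 (0.0133 to 0.405) without the plasma-like cluster.

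Plasma cell genes were low in cells with Crisp3 over all cells but not once the plasma-like cluster was set aside. Of the list's 8 members with enough UMIs, 5 were at least 1.5-fold lower and 0 higher in cells with Crisp3 at day 14, and 8 were lower at day 0. Of all genes, 15.6% were lower at day 14 and 10.3% at day 0. Without the plasma-like cluster 5 members still had enough UMIs, and 0 of them were lower on either day, beside 15.4% of all genes at day 14 and 9.21% at day 0. At day 14 3 were higher, beside 11.5% of all genes, and at day 0 0 were, beside 4.12%. The higher ones were Jchain at 6.88 (5.30 to 8.85), Sdc1 at 2.59 (1.21 to 4.95) and Edem1 at 1.54 (0.756 to 2.82), and Jchain at day 0 was at 1.003 (0.777 to 1.28). Jchain thus lay on opposite sides of 1 at day 14 with and without that cluster. With cluster 11 left out as well, 0 of 5 were lower on either day and 1, Sdc1, was higher at day 14, at 2.88 (1.34 to 5.52), beside 10.2% of all genes at day 14 and 4.09% at day 0. Jchain was then at 0.745 (0.271 to 1.64) at day 14 and 0.858 (0.604 to 1.19) at day 0.

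Of the memory-associated genes, Cd80 and Pdcd1lg2 counted as at least 1.5-fold lower in cells with Crisp3 on both days and Nt5e at day 0, but most of their intervals include 1. Of the 4 members with enough UMIs, 2 were at least 1.5-fold lower at day 14 and 3 at day 0, and 0 were higher, beside 15.6% and 10.3% of all genes that were lower. The fourth, Zeb2, a transcription factor gene, was at 0.754 (0.387 to 1.33) at day 14 and 1.35 (0.915 to 1.94) at day 0. A member with 0 UMIs in cells with Crisp3 counts as lower. Without the plasma-like cluster and cluster 11, Cd80, Nt5e and Pdcd1lg2 counted as lower on both days, beside 17.7% of all genes at day 14 and 9.35% at day 0, and Nt5e then had 0 UMIs in cells with Crisp3 on both. Pdcd1lg2, the PD-1 ligand PD-L2, had 5 UMIs in cells with Crisp3 and 298 in cells without at day 14, a ratio of 0.462 (0.149 to 1.09). At day 0 it had 20 and 292 UMIs, a ratio of 0.656 (0.395 to 1.03).

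Cd80 had 0 UMIs in cells with Crisp3 at day 14 and 63 in the other cells, too few for a fold, and 2 and 69 UMIs at day 0 (0.278, 0.0330 to 1.04). Nt5e had 2 UMIs in cells with Crisp3 at day 14 (0.834, 0.0990 to 3.14) and 3 at day 0 (0.261, 0.0531 to 0.784). The intervals of Cd80, Pdcd1lg2 and Zeb2 include 1 on both days. That of Nt5e includes 1 at day 14 and lies below 1 at day 0, and without those 2 clusters it had 0 UMIs in cells with Crisp3 at day 0, against 88 in the others, with an upper bound of 0.403.

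B-1 cell genes had 2 of 4 members lower and 1 higher at day 14 and 3 of 4 lower at day 0, beside the same shares of all genes. S100a6, which encodes a calcium-binding protein, was at 0.790 (0.338 to 1.58) at day 14 and 0.314 (0.149 to 0.586) at day 0. Anxa2, an annexin gene, was at 2.83 (1.10 to 6.16) at day 14 and 0.396 (0.126 to 0.9499) at day 0, on opposite sides of 1.

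Genes of follicular B cells, the naive recirculating kind, did not separate the cells. Of 9 members, 8 lay within 1.5-fold at day 14 and all 9 at day 0. Fcer2a, which encodes CD23, was at 1.18 (0.942 to 1.47) at day 14 and 1.15 (1.01 to 1.31) at day 0. Between the days Fcer2a was 0.589 (0.556 to 0.625) and Cd55, a complement regulator, 0.594 (0.556 to 0.635), the only 2 of the 9 that were at least 1.5-fold lower at day 14.

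Mature B cell genes lay within 1.5-fold in all 6 cases on both days. Cd93, a marker of transitional B cells that have lately left the bone marrow, was at 1.79 (0.565 to 4.36) at day 14 and 1.68 (0.765 to 3.32) at day 0, and both intervals include 1. The other members of the immature or transitional list were not at least 1.5-fold higher on either day. Sox4 was at 0.530 (0.0132 to 3.08) at day 14, from 1 UMI in cells with Crisp3, and had too few UMIs for the count at day 0. Vpreb3, a gene of the VpreB family, was at 1.28 (1.06 to 1.53) at day 14 and 0.764 (0.619 to 0.934) at day 0. Cd24a was at 1.34 (1.16 to 1.54) at day 14 and 0.895 (0.794 to 1.01) at day 0. Germinal center genes were higher in 5 of 5 cases at day 14 and in 2 of 6 at day 0, beside 11.1% and 4.07% of all genes. Basp1 was at 2.95 (1.71 to 4.81) at day 14 and at 0.660 (0.413 to 1.01) at day 0, the 1 lower member there. Without cluster 11 and the plasma-like cluster, 1 of 4 was higher at day 14 and 1 of 3 at day 0, beside 10.2% and 4.09% of all genes. The higher ones were Bcl6 at 2.19 (0.691 to 5.37) at day 14 and Rgs13 at 3.38 (1.69 to 6.36) at day 0. Fas was then lower at day 14, at 0.513 (0.0128 to 2.97), from 1 UMI in cells with Crisp3. In cluster 11, 5 of the 17 cells held Crisp3 at day 14 and 3 of 33 at day 0.

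All 11 interferon-gamma-associated genes were at least 1.5-fold higher at day 14 than at day 0, beside 1.31% of all genes. The list was chosen with earlier results of these data known, so this count is a description. Of these genes, 0 counted as higher in cells with Crisp3, beside 11.1% of all genes at day 14 and 4.07% at day 0. At day 14, 3 were lower and 8 within 1.5-fold, and at day 0, 1 was lower and 5 within. The shares of all genes that were lower were 15.6% and 10.3%. So few members cannot show that a count of 0 higher differs from the share of all genes. Activation genes were lower in 5 of 10 cases at day 14 (Egr1, Egr2, Egr3, Myc and Nfkbid) and in 0 of 10 at day 0, beside 15.6% and 10.3% of all genes.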

How the data were processed

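The deposited matrices hold counts of UMIs per gene and barcode from Cell Ranger, version 3.0.1 per the file headers, and mm10 per the submitters' processing notes. How reads were aligned, their length and how cells were called were not stated. The tables of natural log values deposited by the authors equal ln(1 + UMIs × 10000 / UMIs of the cell) in every value compared, within a tolerance of 0.001, and hold 4692 of the 4780 day 14 barcodes and 3290 of the 3376 day 0 barcodes, for a reason not stated. The submitters' processing notes also name Seurat 3.0. These tables gave the set of cells, and every level comes from the raw counts.

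UMIs were summed per library and set of cells and divided by the UMIs of genes other than 392 immunoglobulin and 13 mitochondrial genes. Ratios have exact conditional, sums exact Poisson and shares exact Clopper-Pearson 95% intervals (SciPy 1.17.1). No test was made with 1 library in each group, and at least 1.5-fold either way is a rule of size for genes with at least 50 UMIs. For folds, 3 counts stood in for a sum of 0 in a set of cells. Clusters came from Scanpy 1.11.5 and leidenalg 0.10.2 (2000 variable genes without Crisp3, 20 components, resolution 0.8), and a name needed at least 3 class markers among the 25 leading genes. TMM factors came from edgeR 4.0.16. No doublets were removed. Ratios were tested on simulated data.

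Crisp3, the gene lists and the rules were chosen with earlier results of these data known. Named are Crisp3, list members, the 10 genes highest and the 10 lowest in cells with Crisp3 at day 0 by the bound of the ratio nearest to 1 (at least 50 UMIs in each library, without immunoglobulin, mitochondrial, ribosomal protein and predicted genes), and genes next to Crisp3. Of the gene IDs, 30934 of 31053 (99.6%) matched GENCODE M21. Clusters by number, gene lists with clusters left out, Ighd grades and the transcript alignment with Crisp1 were added after the data were seen. The values of some genes taken by these rules are not reported here.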

Additional observations from a re-analysis of the deposited data

Results flagged for a closer look

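For 5 genes the level in cells with Crisp3 over cells without it lay below 1 divided by 1.5 at day 14 and above 1.5 at day 0. The genes were chosen at day 0, the differences between the days were not tested, and 1 or 2 UMIs in cells with Crisp3 stand behind each day 14 value. The chemokine gene Ccl4 had a ratio of 0.492 (0.0122 to 2.85) at day 14 and 4.51 (3.02 to 6.64) at day 0, and 24 of its 40 UMIs in cells with Crisp3 at day 0 lay in 1 cell. The DNA repair gene Mutyh had 0.467 (0.0116 to 2.70) at day 14 and 2.88 (1.37 to 5.59) at day 0. Renbp, which encodes renin-binding protein, had 0.540 (0.0645 to 2.00) at day 14 and 2.27 (1.28 to 3.83) at day 0. Alyref2, an RNA export factor gene, had 0.229 (0.00576 to 1.30) at day 14 and 2.06 (1.25 to 3.26) at day 0. Bcdin3d, an RNA methyltransferase gene, had 0.656 (0.0781 to 2.44) at day 14 and 2.36 (1.24 to 4.20) at day 0.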

How the results depend on the processing

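The Crisp3 ratio of day 14 over day 0 stayed between 0.316 and 0.351 under all 9 alternatives, which were other denominators and size factors, all barcodes, thinning, cells of high depth or with 5 or more Crisp3 UMIs left out, and states or clusters weighted by their shares at day 0. With at least 2 UMIs asked for, 0.597% of cells at day 14 and 2.37% at day 0 held Crisp3, and thinned to 1000 UMIs 1.56% and 4.36%. Class-switched over IgD state at day 14 had 0 UMIs in switched cells without the plasma-like cluster and cluster 11, a bound of 0.643 from the floor. With thinned cells the switched cells had 0 UMIs, which gave no direction at day 14 and a bound of 0.476 at day 0. IgM without IgD over IgD state at day 14 was 1.99 (0.627 to 10.1) with at least 5 Ighd UMIs and 0.510 (0.202 to 1.14) thinned. At day 0 it was 0.278 (0.0890 to 0.663) with at least 10 Ighm UMIs, from 5 UMIs in 68 cells. The cause was not tested.

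Counts of genes followed the filter. In cells with Crisp3, with at least 200 UMIs asked for, 251 genes were higher and 386 lower at day 14, and 23 and 144 at day 0. With any gene seen in both kinds of cell, 1921 were higher at day 14, and 1350 higher and 1321 lower at day 0. With at least 2 Crisp3 UMIs, 1845 were higher and 2903 lower at day 14, and 861 and 1787 at day 0. Between the days, 186 genes were higher and 266 lower with TMM factors, 201 and 255 with size factors, 40 and 130 with at least 200 UMIs and 628 and 1568 with any gene seen in both libraries.

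Of 78 alternative values for the named genes, 45 stayed within the interval, 24 moved outside it and 9, at least 1.5-fold from 1 as reported, crossed 1, while 42 more gave no direction. Those 9 were, at day 14, Ccl4 thinned (1.34), Renbp (1.48) and Bcdin3d (1.80) with at least 2 Crisp3 UMIs and Ly6c2 in the IgD state (6.21). At day 0 they were Ccl4 (0.217) and Tmem176b (1.96) in the IgD state, Spc24 (0.899) and Ipo11 (0.878) with at least 2 Crisp3 UMIs, and St6galnac4 thinned (0.596). Another 8, within 1.5-fold as reported and counted above, also crossed 1, all at day 14: Spc24 (1.88), Rabl3 (1.22) and Mt1 (0.626) thinned, Rabl3 (1.23), Mt1 (0.504) and Bet1 (0.923) with at least 2 Crisp3 UMIs, and St6galnac4 (1.11) and Mt2 (12.4) in the IgD state. Some of the 24 that moved, such as Slpi (0.343) and Bet1 (0.524) at day 0 with at least 2 Crisp3 UMIs, had 0 UMIs in cells with Crisp3. Such values come from the floor of 3 counts and show no changed result. No paired analysis was possible because each group is 1 library. Depth limits what can be said of class-switched cells, cluster 11 and single genes of low level.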

Other observations

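Of the 3977 genes with at least 200 UMIs in each library, 164 were at least 1.5-fold higher in cells with Crisp3 at day 14 and 23 at day 0, and 3 on both days. These 3 were 1.83% of the genes higher at day 14, where 0.578% of all these genes were higher at day 0, and 13.0% of the genes higher at day 0, where 4.12% of all were higher at day 14. On the lower side it was 255 and 138, with 23 on both days. The 23 were 9.02% of the genes lower at day 14, where 3.47% of all were lower at day 0, and 16.7% of those lower at day 0, where 6.41% of all were lower at day 14. The shared higher genes included the predicted genes E130309D02Rik and Gm11361; the choice of the genes named here was made with their values known. The ratio for E130309D02Rik was 1.66 at day 14, with an interval of 0.915 to 2.79 that includes 1, and 1.55 at day 0, with an interval of 1.01 to 2.31. The 23 shared lower genes included Hes1, a transcriptional repressor, at 0.516 (0.333 to 0.765) at day 14 and 0.654 (0.491 to 0.856) at day 0. They also included Jchain, Slpi and Ly6c2, which led the plasma-like cluster, and Edem1 and Txndc5 of the plasma list. Txndc5, a protein of the endoplasmic reticulum, was at 0.416 (0.237 to 0.679) at day 14 and 0.456 (0.328 to 0.619) at day 0. Without the plasma-like cluster Txndc5 was at 0.817 (0.454 to 1.36) at day 14 and 0.832 (0.595 to 1.14) at day 0, and both intervals include 1.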
